A study of Mus musculus with 6 samples.

Results

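Semaphorins, plexins, neuropilins, ephrins and Eph receptors are cell-surface and secreted guidance proteins, and their transcripts were followed here in the medial prefrontal cortex of 6 mice. Members were probe sets annotated to exactly 1 gene whose symbol begins with Sema and a digit, Plxn, Epha, Ephb, Efna or Efnb, or is Nrp1 or Nrp2. The rule found 124 of 45101 probe sets, for 53 of the 18194 genes that have a single-gene probe set. Of these genes 52 encode family proteins, and 1, Plxna4os1, is an RNA of the strand opposite Plxna4. All mice were 129S1/SvImJ males, an inbred strain, at 8 to 10 weeks of age, and all had been through fear extinction training. Tissue of both hemispheres was collected 2 h later. Mice 1, 5 and 9 ate a control diet (Ctl), and mice 3, 7 and 11 the zinc diet abbreviated ZnR in the labels, whose composition the sources used here do not give. All the mice analysed here were trained, so each value below compares the diets after training. Each mouse gave 1 Affymetrix Mouse430_2 array, and each value is a log2 expression value of a probe set, a group of short probes that reads 1 transcript region.

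Semaphorins signal mainly through plexins. Secreted class 3 semaphorins usually need a neuropilin as the binding partner of an A plexin, whereas most membrane-bound semaphorins bind plexins directly. Ephrins are membrane-tethered ligands, ephrin-A by a lipid anchor and ephrin-B by a transmembrane domain, and both they and their Eph receptor tyrosine kinases can signal into the cell that carries them. In developing cortex these systems steer axons and the placing of neurons, and in the adult brain they are known for the shaping of dendritic spines and synapses.

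The arrays had medians between 4.46 and 4.52 over all probe sets. Probe sets that read 18S ribosomal RNA were low in Ctl mouse 1 (mean 9.09) and ZnR mouse 3 (8.44) and lay between 10.9 and 12.4 elsewhere. For this low-18S pair and for the 4 remaining mice, the differences are given separately for the members that passed the test. With 3 arrays per diet, precision is limited by their number. On data simulated with the spread of these arrays, the test recovered 13 of 50 probe sets changed by 0.5 log2 units and 36 of 50 changed by 1.

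In ZnR mice the secreted ligand gene Sema3e and the receptor gene Ephb3 fell and the ephrin-B ligand gene Efnb3 rose, while the other 41 member genes read above the level filter did not pass the test. A probe set was tested if it exceeded 4 log2 units on at least 3 of the 6 arrays, and it passed if its limma p-value, adjusted by Benjamini-Hochberg over all 25381 probe sets tested, was under 0.05. Of the 124 member probe sets 93 were tested, for 44 genes. Of the 93, 1 rose and 3 fell, or 4.3%, against 1.47% of all probe sets tested (0.461% higher, 1.01% lower). At an unadjusted p under 0.05 there were 10 higher and 20 lower, or 32.3%, against 17.0% of all (9.06% higher, 7.9% lower). The mice of the diets did not overlap in 35 of the 93, 12 higher and 23 lower, or 37.6%, against 23.7% of all (13.1% higher, 10.6% lower). The median difference of the 93, ZnR minus Ctl, was -0.04 log2 units, against 0.02 over all probe sets tested. A difference of more than 0.5 in either direction was seen in 7 of the 93, against 1249 of all 25381. The 7 belong to Sema3e, Sema7a, Ephb3 and Ephb6.

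**Figure D1:**
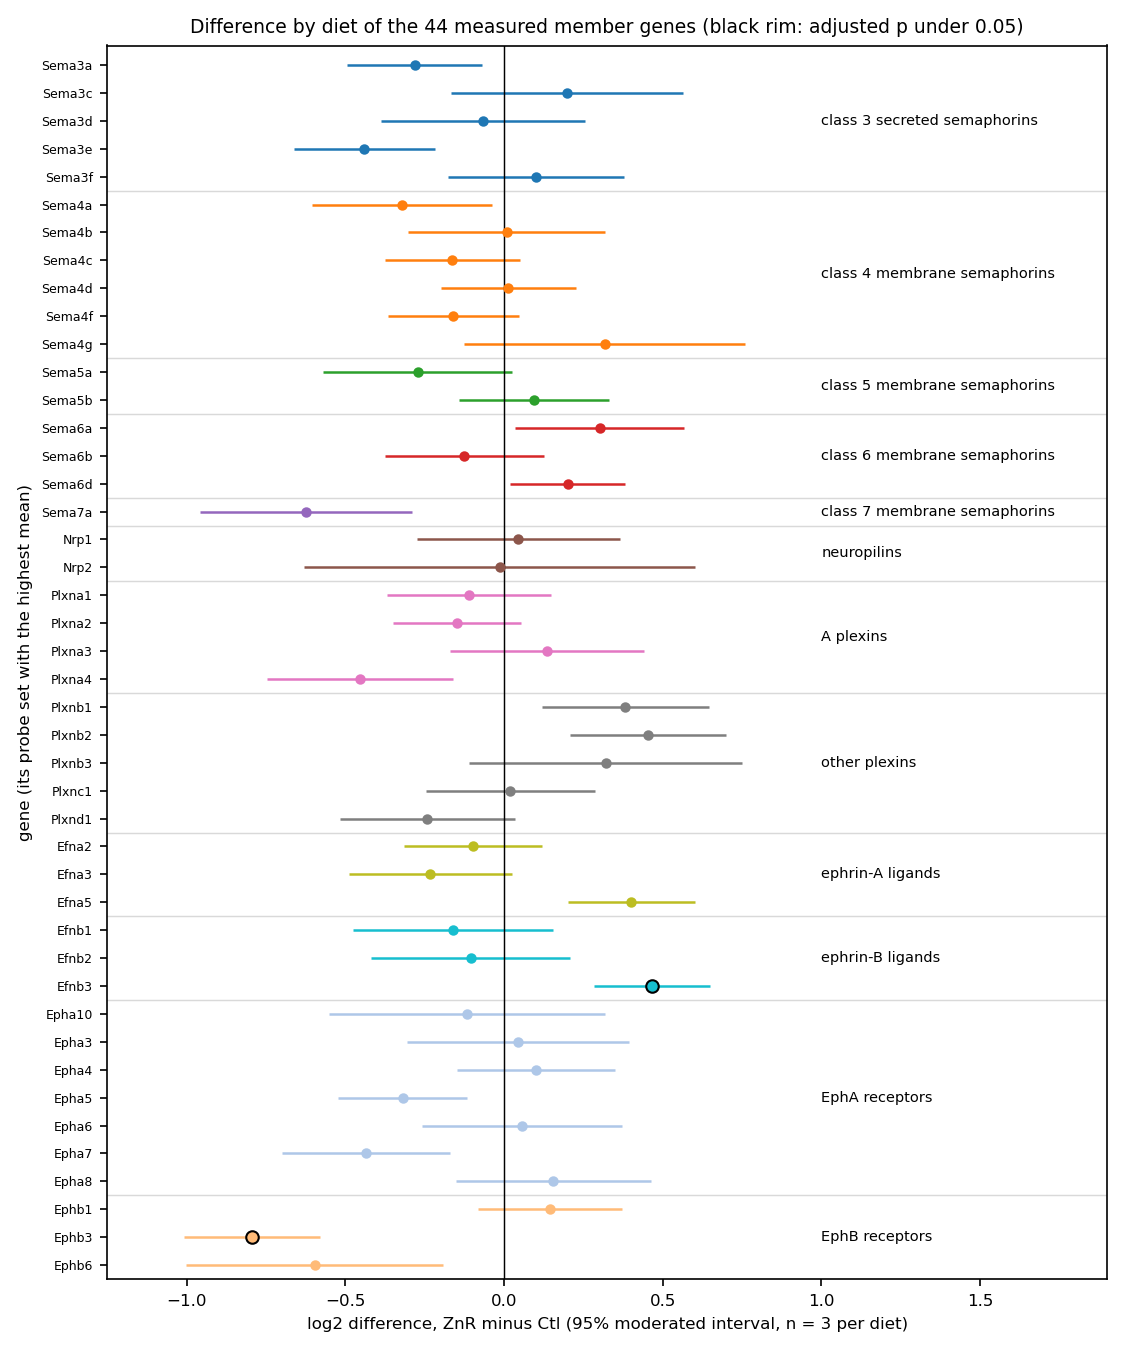
Log2 difference, ZnR minus Ctl, of the 44 measured member genes, each on the probe set of highest mean level, with the 95% moderated interval (n = 3 mice per diet) and grouped by class. Black rims mark adjusted p under 0.05, which on these probe sets only Efnb3 and Ephb3 reached; Sema3e passed on other probe sets than the one drawn.

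Read by gene, as plotted by class, the differences ran from -0.79 in Ephb3 to 0.47 in Efnb3. Of the 44 genes 23 were lower and 21 higher on average. By this choice of probe set 1 gene rose and 1 fell, or 4.55% of 44, against 1.92% of the 11749 genes read in the same way (0.655% higher, 1.27% lower). The plot of members among all probe sets sets these differences beside those of the other genes at the same level.

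**Figure D2:**
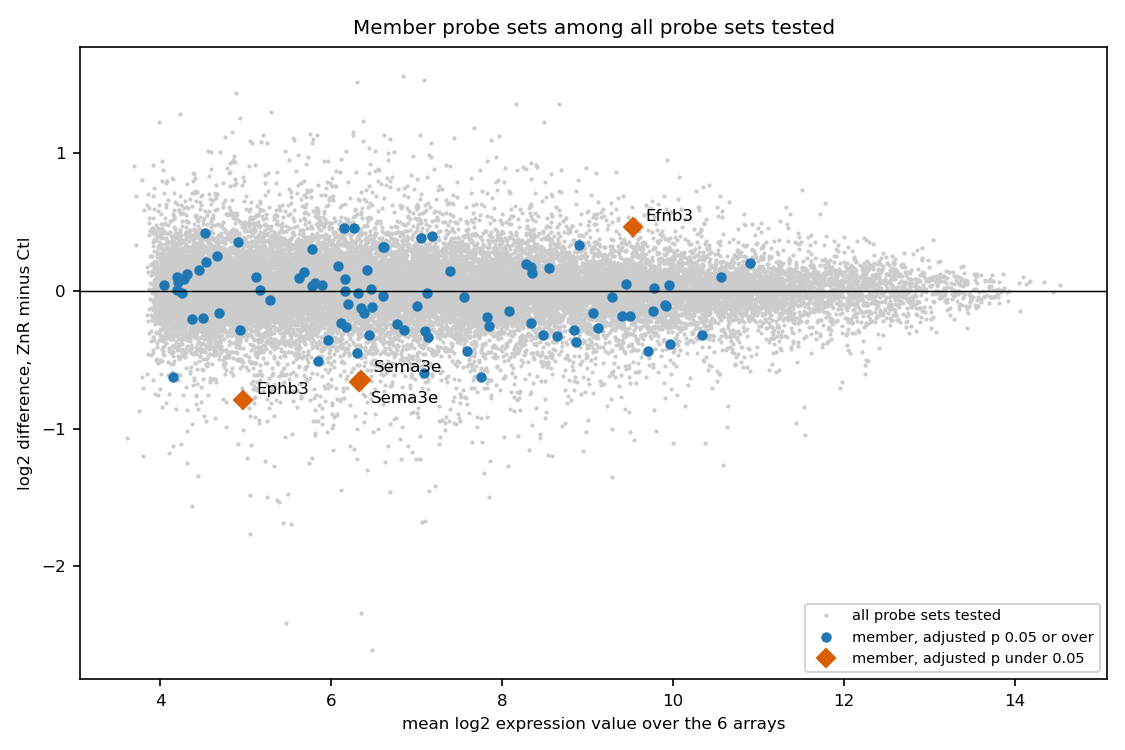
Log2 difference, ZnR minus Ctl, against the mean log2 value over the 6 arrays, for all 25381 probe sets tested (grey), the 89 member probe sets that did not pass (blue circles) and the 4 that did (orange diamonds). The 2 probe sets of Sema3e and that of Ephb3 lie below 0 and that of Efnb3 above it.

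Markers of several cell types moved with diet on the same arrays. The marker lists were chosen with earlier results of these data known, so their counts are no independent test. Of all genes read by their best-read probe set 1.92% passed (0.655% higher, 1.27% lower). Of 6 measured markers of cortical excitatory neurons 5 fell, and their mean level was 10.35 to 10.49 log2 units in Ctl mice and 9.39 to 9.60 in ZnR mice. All 8 measured markers of striatal medium spiny neurons were higher on average and 2 of them rose, with mean levels of 10.63 to 11.07 in Ctl and 11.29 to 11.51 in ZnR mice. All 6 measured markers of cells that line the ventricles were higher on average and 2 of them rose, with mean levels of 4.22 to 5.14 in Ctl and 5.65 to 5.91 in ZnR mice. The lists of astrocytes (10.01 to 10.08 against 10.31 to 10.40), with 1 of 5 markers past the test, and of oligodendrocyte precursors (7.96 to 8.13 against 8.34 to 8.51), with none of 4, did not overlap either. Summed on the linear scale, the signals of excitatory neurons were 11630 to 12170 in Ctl against 7548 to 8104 in ZnR mice. Those of striatal neurons were 19400 to 24250 against 27080 to 30950, and of ventricle-lining cells 131.6 to 262.8 against 471.4 to 561.6. Those of oligodendrocyte precursors were 2937 to 3121 against 3415 to 4325. For astrocytes the summed signals overlapped, at 11150 to 13220 against 13090 to 14960. By mean level the lists of oligodendrocytes, endothelial cells, microglia, leptomeningeal fibroblasts and interneurons overlapped, and of their markers 1 interneuron gene, Vip, fell. The defining markers without a tested single-gene probe set include Adora2a, Folr1, Col1a1 and Lum. The part of these cell types in the members' differences was not tested. In whole tissue, fewer cells of a type and less RNA per cell cannot be told apart.

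Sema3e, which encodes a secreted class 3 semaphorin that binds plexin D1 without a neuropilin, was lower in ZnR mice on all 4 of its probe sets. On probe set 1427673_a_at it read 6.84, 6.67 and 6.46 in Ctl mice 1, 5 and 9 and 5.98, 6.09 and 5.91 in ZnR mice 3, 7 and 11. On 1442226_at it read 6.79, 6.72 and 6.53 in Ctl mice and 5.88, 6.04 and 6.17 in ZnR mice. The diets did not overlap on either, and in both the lowest Ctl mouse was mouse 9. The first fell 1.58-fold (log2 difference -0.66 ± 0.12 SE, limma adjusted p = 0.0461) and the second 1.57-fold (-0.65 ± 0.11 SE, adjusted p = 0.0433). The other probe sets of the gene measured -0.51 ± 0.10 (1425906_a_at, adjusted p = 0.0529) and -0.44 ± 0.10 (1419717_at, adjusted p = 0.073), again without overlap. The 2 probe sets that passed measured -0.85 and -0.91 in the low-18S pair alone and -0.57 and -0.52 in the remaining mice. With any single mouse left out neither passed (adjusted p from 0.0546 to 0.156 over both probe sets, and from 0.00722 to 0.188 over all alternatives), while the differences stayed between -0.76 and -0.57.

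**Figure D3:**
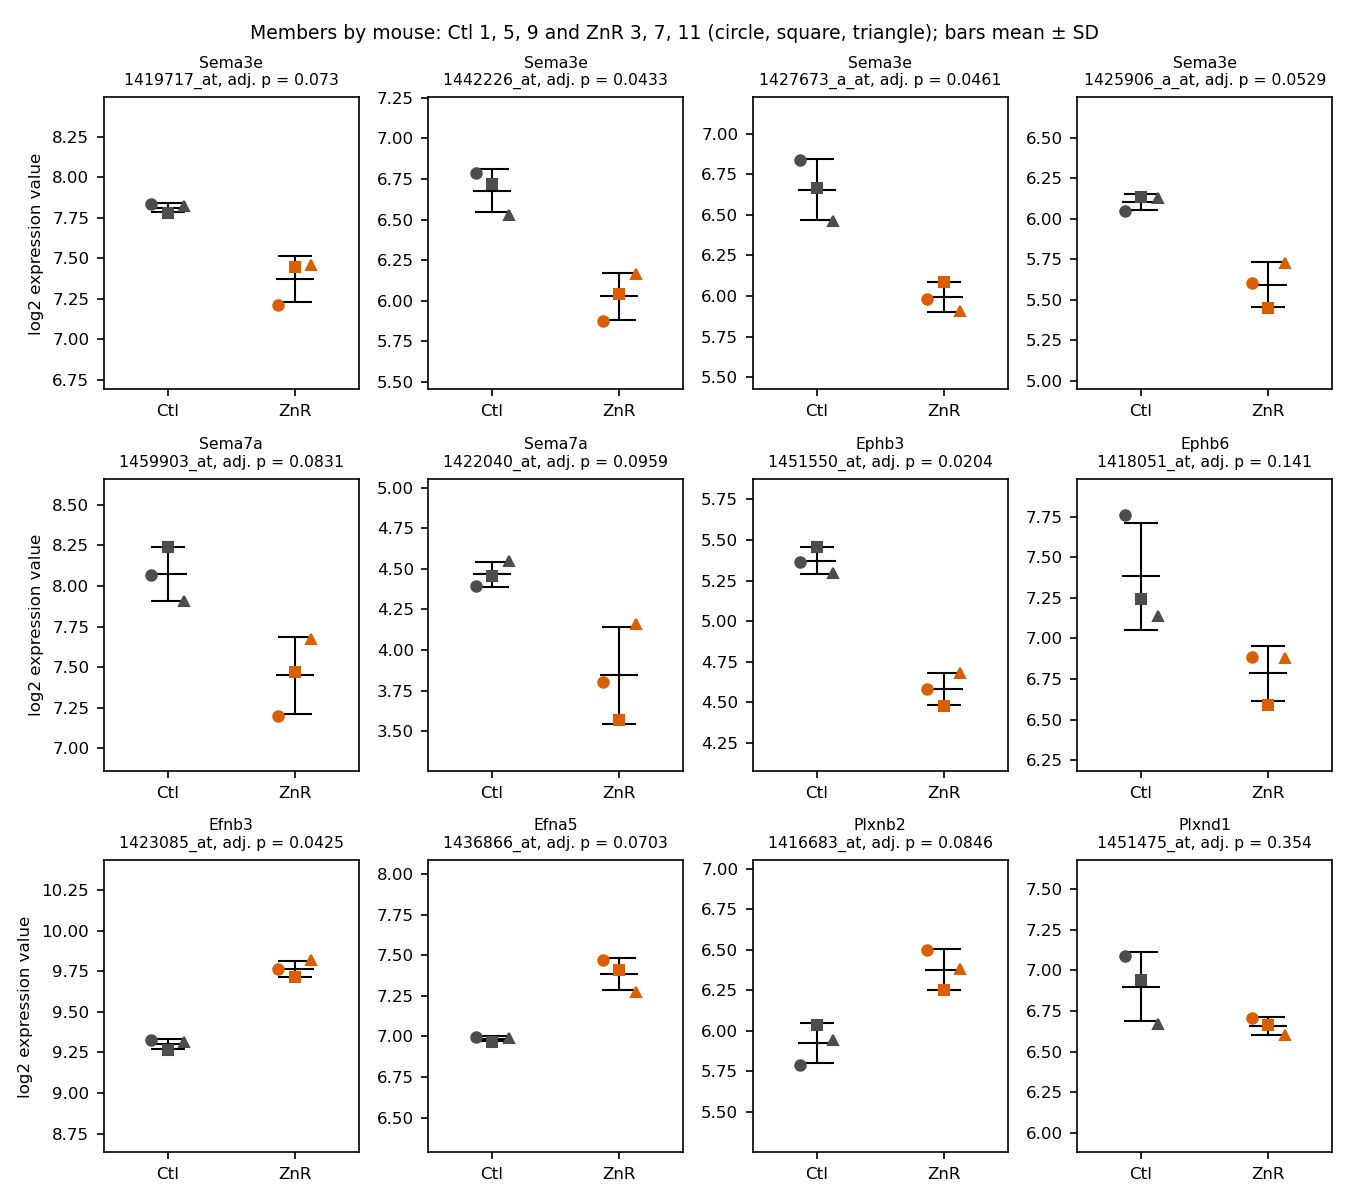
Log2 expression value by mouse for 12 member probe sets, with Ctl mice 1, 5 and 9 in grey and ZnR mice 3, 7 and 11 in orange (circle, square and triangle in that order); bars give mean ± SD, and each panel spans the same number of log2 units. The diets do not overlap in any panel except that of Plxnd1, where Ctl mouse 9 at 6.67 lies below ZnR mouse 3 at 6.71.

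The promoter windows of Sema3e and of the other members with the largest differences below 0, Ephb3 and Sema7a, are shown to set their sequences side by side, with searched motifs in capitals. The windows are the 250 bases before the RefSeq start in assembly GRCm38.p6, which is of C57BL/6J and not of the strain studied. They lie at chr5:14025026-14025275 for Sema3e, chr16:21204545-21204794 for Ephb3 and chr9:57939862-57940111 for Sema7a, all on the plus strand.
Sema3e: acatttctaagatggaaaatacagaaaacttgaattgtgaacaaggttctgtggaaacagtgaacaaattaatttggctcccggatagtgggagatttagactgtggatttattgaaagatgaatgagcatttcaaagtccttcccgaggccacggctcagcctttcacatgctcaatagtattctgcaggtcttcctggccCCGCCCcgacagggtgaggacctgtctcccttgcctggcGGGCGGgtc
Ephb3: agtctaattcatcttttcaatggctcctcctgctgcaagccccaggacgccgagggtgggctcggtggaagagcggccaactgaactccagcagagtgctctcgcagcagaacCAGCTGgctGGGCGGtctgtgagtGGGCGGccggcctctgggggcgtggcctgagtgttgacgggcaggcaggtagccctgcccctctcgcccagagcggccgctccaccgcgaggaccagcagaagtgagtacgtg
Sema7a: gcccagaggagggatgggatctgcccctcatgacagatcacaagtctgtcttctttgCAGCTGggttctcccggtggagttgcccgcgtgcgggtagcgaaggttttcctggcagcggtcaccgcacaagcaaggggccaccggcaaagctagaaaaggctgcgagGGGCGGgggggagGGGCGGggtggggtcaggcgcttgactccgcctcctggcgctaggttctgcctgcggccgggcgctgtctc

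The capitals mark the GC box GGGCGG, the site of Sp1 factors, and the E-box CAGCTG, a site of basic helix-loop-helix factors, on either strand; no marked motif overlaps another. Each of the 3 windows held 2 GC boxes, and those of Ephb3 and Sema7a held 1 E-box of this form. A GC box was found in 37 of the 46 member genes with a window, or 80.4%, against 35.4% of all 27025 genes with one. The member windows were also richer in G and C, with a median of 64.2% against 52.4%. The E-box CAGCTG was found in 19.6% of member genes and 14.7% of all. Also searched on both strands were the metal response element of the zinc sensor Mtf1 as TGCACNC (21.7% of members, 11.8% of all) and TGCGCNC (15.2% and 14.0%), the cyclic AMP response element TGACGTCA (2.17% and 1.77%), the Egr site GCGGGGGCG (10.9% and 2.93%), the E-box CAGATG (10.9% and 16.3%), CCAAT (34.8% and 37.5%) and TATAAA (2.17% and 14.3%). None of these letters is in the 3 windows shown.

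The receptor gene of Sema3e did not pass. Plxnd1 read 7.09, 6.94 and 6.67 in Ctl mice and 6.71, 6.66 and 6.60 in ZnR mice, a difference of -0.24 ± 0.12 SE with a 95% interval of -0.52 to 0.03 (adjusted p = 0.354). Its Ctl mouse 9 lay among the ZnR mice. The difference was -0.36 without that mouse, -0.15 without Ctl mouse 1 and -0.17 with the low-18S pair removed. The interval leaves room for a fall of the size seen in Sema3e on its weaker probe sets as well as for no change.

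The other class 3 semaphorins did not pass. Sema3a, a repellent of cortical axons that acts through neuropilin 1 and is also held in perineuronal nets, read 7.06, 6.87 and 7.07 in Ctl mice and 6.72, 6.77 and 6.67 in ZnR mice on its best-read probe set. That is -0.28 ± 0.09 SE without overlap (adjusted p = 0.174), and its other tested probe set, close to the filter, measured 0.04. Sema3c measured 0.20 ± 0.16, Sema3d -0.07 ± 0.14 and Sema3f, the ligand of neuropilin 2, 0.10 ± 0.12. With single mice left out, Sema3c ran from 0.09 to 0.36 and Sema3f from 0.02 to 0.22. Of the 10 class 3 probe sets tested 2 fell, none rose and 8 did not pass, or 20% called against 1.47% of all (1.01% lower). Both that fell belong to Sema3e, so the count reads 1 gene. On best-read probe sets none of the 5 class 3 genes passed, against 1.92% of all genes.

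The neuropilin genes, coreceptors of the class 3 semaphorins, overlapped between diets on all 8 of their probe sets. Nrp1 measured 0.05 ± 0.14 on its best-read probe set, with a 95% interval of -0.27 to 0.37, and its 4 probe sets ran from 0.05 to 0.18. Nrp2 measured -0.01 ± 0.26 with an interval of -0.63 to 0.60, and its 4 probe sets ran from -0.32 to 0.0033. The sign of both best-read values turned when single mice were left out. For Nrp2 the spread within diets was wide, with 6.74, 6.99 and 7.66 in Ctl mice and 6.75, 7.49 and 7.11 in ZnR mice, so a change of moderate size could not be seen.

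The A plexin genes, which encode the signalling partners of the neuropilins and the receptors of class 6 semaphorins, did not pass on any of their 9 probe sets. Of these 7 were lower and 2 higher. Plxna4, which conveys Sema3a signals to growth cones, read 6.69, 6.50 and 6.40 in Ctl mice and 6.18, 6.19 and 5.85 in ZnR mice (-0.45 ± 0.13 SE, adjusted p = 0.128), without overlap. Its other probe set measured -0.20 ± 0.14. Plxna2 was lower on average on each of 4 probe sets, from -0.28 to -0.15, and the one with the largest difference read 9.18, 8.86 and 8.90 in Ctl against 8.71, 8.70 and 8.69 in ZnR mice (-0.28 ± 0.10 SE, adjusted p = 0.225). Plxna1 measured -0.11 ± 0.11. Plxna3 ran the other way, with 0.36 ± 0.10 (adjusted p = 0.136) and 0.13 ± 0.13 on its 2 probe sets.

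The B plexin genes, among them the class 4 semaphorin receptor genes Plxnb1 and Plxnb2, were higher on average on all 5 of their probe sets, none past the test. Plxnb2 read 5.79, 6.04 and 5.94 in Ctl and 6.50, 6.25 and 6.38 in ZnR mice (0.45 ± 0.10 SE, adjusted p = 0.0846), with every ZnR mouse above every Ctl mouse. Plxnb1, the receptor of Sema4d, read 6.84, 7.01 and 6.73 in Ctl and 7.35, 7.08 and 7.30 in ZnR mice on its best-read probe set (0.38 ± 0.11 SE, adjusted p = 0.147). Its other probe set measured 0.18 ± 0.13 and overlapped. Plxnb3, known from oligodendrocytes, read 6.79 and 6.36 in ZnR mice 3 and 7 and 7.15 in ZnR mouse 11, against 6.40 to 6.50 in Ctl mice (0.32 ± 0.18 SE, adjusted p = 0.436). Plxnb3 measured 0.13 without ZnR mouse 11 and 0.52 without ZnR mouse 7. The oligodendrocyte marker list had its highest mean in ZnR mouse 11, 11.88 against 11.12 to 11.56 in the remaining mice. In Ctl mice 1, 5 and 9 the list read 11.28, 11.21 and 11.12, and Plxnb3 6.40, 6.44 and 6.50, in the opposite order. A link between the list and Plxnb3 was not tested.

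Class 4 semaphorin genes, which encode membrane-bound ligands of the products of Plxnb1 and Plxnb2, did not pass on any of 9 probe sets. Sema4d measured 0.01 ± 0.09 on its best-read probe set, with a 95% interval of -0.20 to 0.23, and 0.15 ± 0.13 on its other tested one. On best-read probe sets Sema4d and its receptor gene Plxnb1 stood at 0.01 and 0.38. Sema4a read 8.65, 8.67 and 8.60 in Ctl and 8.06, 8.45 and 8.45 in ZnR mice (-0.32 ± 0.12 SE, adjusted p = 0.24). ZnR mouse 3 was lowest, and without it the difference was -0.19. Those are values of the best-read probe set of Sema4a, and its other one measured -0.19 ± 0.10 and overlapped. Sema4c and the best-read probe set of Sema4f measured -0.16 each, the other probe set of Sema4f -0.0015, and Sema4b 0.0079. Sema4g measured 0.32 ± 0.19, and its Ctl mice spread widely, at 6.93, 6.34 and 6.14. Without Ctl mouse 1 it measured 0.55 and without Ctl mouse 9 it measured 0.15.

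Sema7a, which encodes a semaphorin held to the membrane by a lipid anchor and read by plexin C1 and integrins, was lower on average on both of its probe sets but did not pass. Probe set 1459903_at read 8.07, 8.24 and 7.91 in Ctl mice and 7.20, 7.47 and 7.67 in ZnR mice, a difference of -0.62 ± 0.14 SE (adjusted p = 0.0831). Probe set 1422040_at read 4.39, 4.45 and 4.55 in Ctl and 3.80, 3.57 and 4.16 in ZnR mice, a difference of -0.62 ± 0.15 SE (adjusted p = 0.0959). Neither overlapped, and on both ZnR mouse 11 was nearest to the controls. On the second, 2 of the ZnR mice were under the level filter, where the values are compressed. The Ctl mice alone met the filter there, so its difference adds no support to that of the first. Its receptor gene Plxnc1 measured 0.02 ± 0.11 with an interval of -0.25 to 0.29, and its 5 probe sets ran from -0.28 to 0.13.

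Class 5 and class 6 semaphorin genes did not pass either. Sema5a measured -0.27 ± 0.13 (adjusted p = 0.336) and Sema5b 0.09 ± 0.10 on their best-read probe sets. Without ZnR mouse 3 Sema5a measured -0.14. Of the class 6 genes, which encode transmembrane ligands of A plexins, Sema6d read 10.84, 10.82 and 10.76 in Ctl and 11.03, 10.97 and 11.02 in ZnR mice, a small difference of 0.20 ± 0.08 SE without overlap (adjusted p = 0.25). Sema6a read 5.51, 5.56 and 5.82 in Ctl and 5.82, 6.07 and 5.90 in ZnR mice (0.30 ± 0.11 SE, adjusted p = 0.239), and Sema6b measured -0.13 ± 0.11.

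Efnb3, which encodes ephrin-B3, a transmembrane ligand known as a midline barrier to corticospinal axons, rose in ZnR mice. It read 9.32, 9.26 and 9.31 in Ctl mice and 9.76, 9.72 and 9.82 in ZnR mice. The spread within each diet was small, with 9.30 ± 0.03 against 9.77 ± 0.05 (SD, n = 3 per diet), and the difference of 0.47 ± 0.08 SE was a 1.38-fold rise (limma adjusted p = 0.0425). The low-18S pair alone gave 0.44 and the remaining mice 0.48. With any single mouse left out the rise did not pass (adjusted p from 0.0803 to 0.159, and from 0.00764 to 0.179 over all alternatives), although its size stayed between 0.44 and 0.49. Efnb3 had 1 probe set, so no other reading of the transcript was at hand.

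The other ephrin-B genes did not pass. Efnb1 was lower on average on its 3 probe sets, with -0.36 ± 0.09 on 1418285_at, where 6.15, 6.10 and 6.18 in Ctl stood against 5.89, 5.70 and 5.76 in ZnR mice (adjusted p = 0.0938). Its best-read probe set measured -0.16 ± 0.14 and overlapped between diets. Efnb2, read by 4 probe sets, measured -0.10 ± 0.13 on the best-read one and up to 0.46 ± 0.20 on another, so its direction depended on the probe set.

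Ephb3, which encodes a receptor tyrosine kinase for ephrin-B ligands, had the largest difference of any member. It read 5.36, 5.46 and 5.30 in Ctl mice and 4.58, 4.48 and 4.68 in ZnR mice. All 3 ZnR mice lay more than 0.5 log2 units below the lowest control. The fall was 1.73-fold (log2 difference -0.79 ± 0.09 SE, limma adjusted p = 0.0204), with -0.78 in the low-18S pair alone and -0.80 in the remaining mice. With single mice left out it passed in 3 of 6 fits, without Ctl mouse 1 (adjusted p = 0.0473), ZnR mouse 7 (0.0499) or Ctl mouse 9 (0.0441), and was lost without Ctl mouse 5 (0.0941), ZnR mouse 3 (0.0785) or ZnR mouse 11 (0.0673). Over all alternatives its adjusted p ran from 0.00351 to 0.121. Its levels lie near the filter, where the deposited values are compressed. It too had 1 probe set.

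The remaining EphB genes did not pass. Ephb6, whose product binds ephrin-B but lacks kinase activity, read 7.76, 7.24 and 7.14 in Ctl and 6.89, 6.59 and 6.88 in ZnR mice (-0.60 ± 0.17 SE, adjusted p = 0.141). No ZnR mouse reached a control, but Ctl mouse 1 stood apart upward, and without it the difference was -0.41. Ephb1 measured 0.14 ± 0.10 (adjusted p = 0.511) with overlap. Ephb2 was not analysed here.

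Among ephrin-A genes Efna5 was higher on average and Efna3 lower, and neither passed. Efna5, which encodes a repellent ligand used in mapping of cortical and thalamic axons, read 7.0, 6.97 and 6.99 in Ctl mice and 7.47, 7.41 and 7.28 in ZnR mice. That is 0.40 ± 0.09 SE, or 1.32-fold (adjusted p = 0.0703), with all ZnR mice above the closely grouped controls. Efna3 measured -0.23 ± 0.11 on its best-read probe set, which overlapped, and -0.33 ± 0.08 on the other (adjusted p = 0.102), where 7.31, 7.33 and 7.29 in Ctl stood against 7.0, 6.88 and 7.05 in ZnR mice. Efna2 measured -0.10 ± 0.09.

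EphA receptor genes were read by 18 probe sets, of which none passed. At an unadjusted limma p under 0.05, 1 was higher and 5 were lower, or 33.3% against 17.0% of all (9.06% higher, 7.9% lower). On best-read probe sets 2 of 7 genes were lower and none higher, or 28.6% against 18.8% of all genes. The 5 lower probe sets belong to Epha7 and Epha5, both receptors of ephrin-A5, and so repeat the reading of these genes. Epha7 was lower on average on all 4 probe sets, from -0.44 to -0.26, and 1452380_at read 9.92, 9.83 and 10.02 in Ctl and 9.38, 9.70 and 9.38 in ZnR mice (-0.44 ± 0.11 SE, adjusted p = 0.114). Epha5 was lower on average on all 4 as well, from -0.39 to -0.02, and 1444690_at read 10.54, 10.47 and 10.50 in Ctl and 10.16, 10.30 and 10.10 in ZnR mice (-0.32 ± 0.09 SE, adjusted p = 0.122). For both these probe sets the diets did not overlap. Epha4, a receptor of both ephrin classes on spines and astrocyte contacts, measured 0.10 ± 0.11 on its best-read probe set and from -0.18 to 0.33 over 5. Epha3, Epha6, Epha8 and Epha10 ran from -0.12 to 0.15 on their best-read probe sets.

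**Figure D4:**
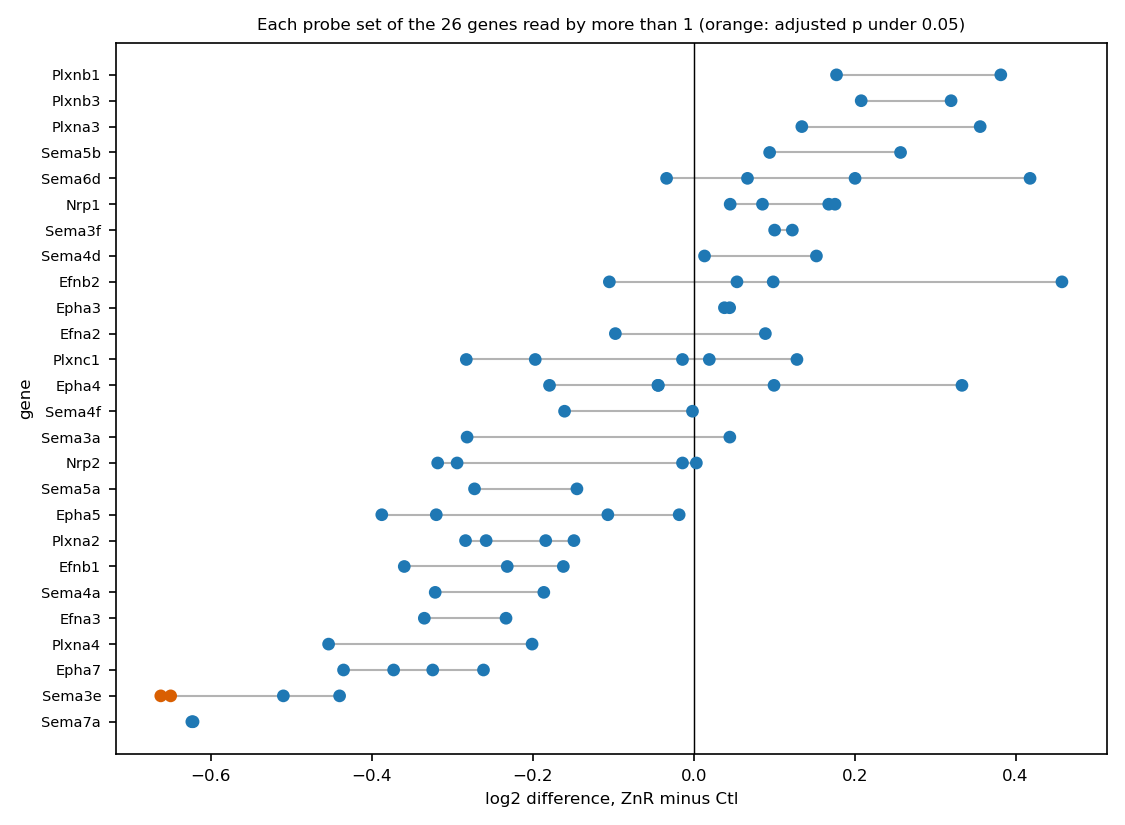
Log2 difference, ZnR minus Ctl, of every tested probe set of the 26 member genes read by more than 1 probe set, ordered by the median over probe sets. Orange marks adjusted p under 0.05, reached by 2 of 4 probe sets of Sema3e; the 2 points of Sema7a coincide near -0.62.

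Of the 26 genes with several tested probe sets, 19 had all of them on one side of 0, 11 lower and 8 higher, as the plot of probe sets per gene shows. The same share over all genes was not computed, so the count shows nothing particular to the members. Probe sets of a gene read the same RNA of the same mice, so they repeat the measurement and not the experiment. The 7 genes whose probe sets pointed both ways were Sema3a, Sema6d, Nrp2, Plxnc1, Efna2, Efnb2 and Epha4. When each gene was read by the mean of its tested probe sets, or by its only one, and fitted over 11749 genes, 6 of the 44 members passed. In all, 565 genes or 4.81% passed. The 6 were Ephb3, Sema3e, Efnb3, Sema7a, Efna5 and Plxnb2. Limma gave -0.62 ± 0.12 SE for Sema7a (adjusted p = 0.03), 0.40 ± 0.08 SE for Efna5 (0.0312) and 0.45 ± 0.10 SE for Plxnb2 (0.0424). Ephb3, Efnb3, Efna5 and Plxnb2 have 1 tested probe set each, so only the spread estimate and the adjustment differ from the main fit. The Sema7a mean includes 1422040_at, which met the filter through its Ctl mice. This fit over genes was not repeated under other settings. Over all alternatives of the best-read probe set, gene means included, adjusted p ran from 0.0176 to 0.269 for Sema7a. For Efna5 it ran from 0.0201 to 0.271 and for Plxnb2 from 0.0424 to 0.318.

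The 31 member probe sets that were not tested had mean levels of 2.07 to 3.95 log2 units. They include every probe set of 9 genes: Sema3b, Sema3g, Sema6c, Efna1, Efna4, Epha1, Epha2, Ephb4 and Plxna4os1. None of the 93 that were tested had every mouse of 1 diet above the filter level and no mouse of the other. Probe set 1422040_at of Sema7a came nearest. There every Ctl mouse, but of the ZnR mice only mouse 11, was above it, so the Ctl mice alone met the filter. That probe set is counted among the 20 lower at an unadjusted limma p under 0.05 and the 23 lower without overlap.

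Of the other genes of these pathways, coreceptors and signalling proteins listed by their known roles, 54 of 59 were measured. On the best-read probe set of each, 1 of the 54 rose, none fell and 53 did not pass, or 1.85% called against 1.92% of all genes read in the same way. At an unadjusted p under 0.05 the limma test gave 3 higher and 7 lower, or 18.5% against 18.8% of all genes. Both shares are near the background. The gene that rose was Chn2, which encodes beta-chimaerin, a Rac GTPase-activating protein that acts downstream of neuropilin 2. It read 10.09, 10.17 and 10.37 in Ctl and 10.84, 10.80 and 10.82 in ZnR mice (0.61 ± 0.10 SE, 1.52-fold, adjusted p = 0.037), and it did not pass with any single mouse left out (0.0524 to 0.145, and 0.00555 to 0.174 over all alternatives). The next by p were lower on average. Mical2, of the family of plexin-bound enzymes that oxidise actin, measured -0.34 ± 0.09 (adjusted p = 0.109). Rnd1, a small GTPase that binds plexins, measured -0.85 ± 0.23 (adjusted p = 0.123), and -0.56 without Ctl mouse 9, which read 6.28 where the remaining controls read 5.48 and 5.35. Chl1, an adhesion molecule that joins neuropilin 1, measured -0.31 ± 0.09 (adjusted p = 0.128), and Kalrn, a Rac exchange factor downstream of EphB receptors in spines, -0.41 ± 0.12 (adjusted p = 0.137). None of these 4 overlapped between the diets, and of all genes on best-read probe sets 27.7% did not. The 4 were named by smallest p, so their lack of overlap adds no support. The mean over all tested probe sets of Kalrn was -0.11 (limma adjusted p = 0.629). Over all alternatives of its best-read probe set, that mean among them, the adjusted p ran from 0.0395 to 0.629. Read by the probe set of smallest p, 2 partners passed, Chn2 and Nrcam, an adhesion molecule of the neuropilin receptor complexes. That probe set of Nrcam fell (-0.65 ± 0.11 SE, adjusted p = 0.0381), and its best-read one measured -0.21 ± 0.08 (adjusted p = 0.259).

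**Figure D5:**
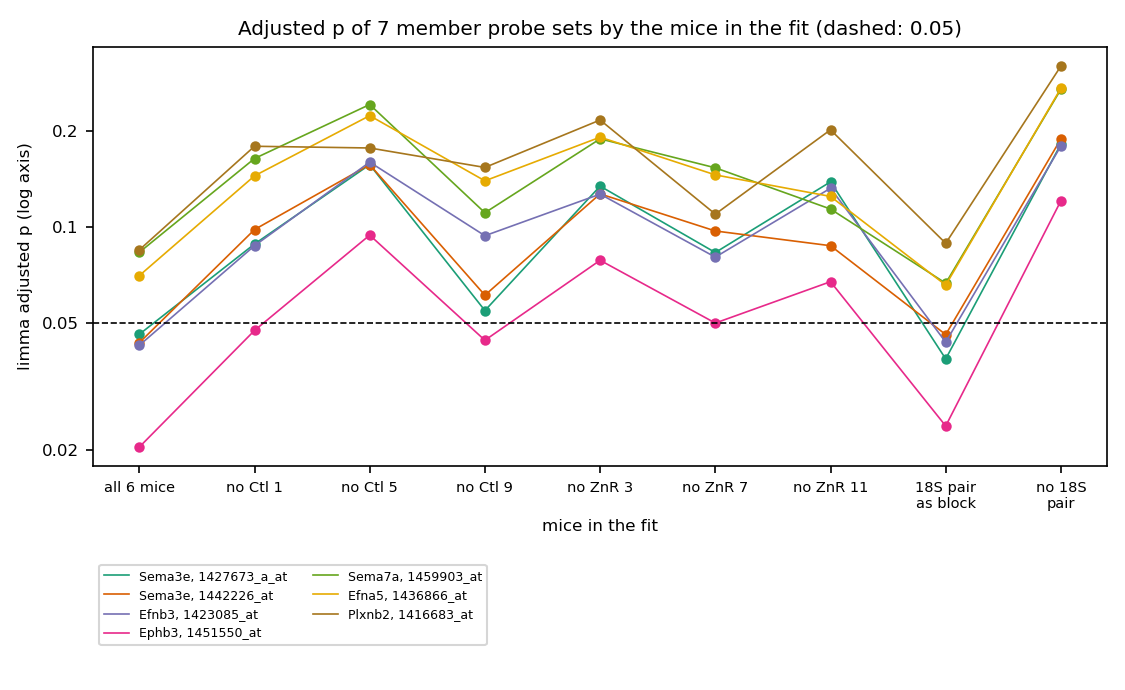
Limma adjusted p (log axis) of 7 member probe sets with all 6 mice, with each mouse left out, with a block for the low-18S pair, and with that pair removed. The dashed line is 0.05; with all mice and with the block the probe sets of Sema3e, Ephb3 and Efnb3 lie under it, and without the pair none does.

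Which members passed depended on the mice in the fit, as the plot of adjusted p by mice shows. With a block for the low-18S pair the same 4 probe sets passed, and with the pair removed none of the 93 did (1 of all 25381 probe sets, by limma). The adjusted p without the pair was 0.121 for Ephb3, 0.179 for Efnb3 and 0.182 and 0.188 for the probe sets of Sema3e. Without the pair Ephb3 measured -0.80 and Efnb3 0.48, close to their values in all mice, and the probe sets of Sema3e measured -0.57 and -0.52, nearer to 0 than the -0.66 and -0.65 in all mice.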

How the data were processed

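Total RNA (500 ng per mouse) was labelled with the Affymetrix 3′ IVT Express kit, per the labels' protocols. The authors deposited log2 expression values made with GCRMA 2.28.0 in R 2.15.1, per the submitters' processing notes; the genome build and later filters are not given in the sources used here. GCRMA corrects background by probe sequence, makes quantiles nearly equal between arrays and compresses values near the floor. The 45101 rows include 64 array controls, which were left out.

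The diets were compared by moderated tests (limma 3.58.1 under R 4.3.3; linear fit, then empirical Bayes; 2-sided) over the 25381 probe sets above 4 log2 units on at least 3 of 6 arrays. Errors are moderated standard errors. A gene's best-read probe set is its tested one with the highest mean. All 124 member probe sets matched RefSeq genes (GRCm38.p6) by Entrez identifier. Members and lists were chosen with earlier results of these data known.

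Named were members past the threshold, members by p up to 24, the best-read gene of each class, 14 fixed genes, and 5 partners by p, which gave 33 members. Alternatives covered filter, normalization, variance prior, array weights, the low-18S pair, each mouse and the probe-set rule. Simulated data gave 5 false calls. Plots used Python 3.11.15 and matplotlib 3.10.9.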

Additional observations from a re-analysis of the deposited data

How the results depend on the processing

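No paired analysis was possible because the diets share no mouse numbers. The count of members that rose (1) was 2 with the filter at 6 log2 units, which left out Ephb3, 4 with array weights, 0 without the low-18S pair and 0 in each fit that left out a mouse. The count of members that fell (3) was 6 with an intensity trend in the variance prior, 13 with array weights, 0 without the low-18S pair, 1 counted per gene, and 0 to 1 with a mouse left out. The partner count (1) was 3 with the trend, 4 with array weights, 0 without the low-18S pair, 2 by each gene's smallest p and 0 with each mouse left out. Of all probe sets tested, array weights called 2003, or 7.89%, the trend 916, or 3.61%, and the filter at 6 called 501, or 3.04%. The main fit called 1.47%. Without the low-18S pair 1 probe set of all passed, or 0.00394%. With a mouse left out 1 to 109 passed, or 0.00394% to 0.429%. Of 634 alternative values for 40 named probe sets, 565 kept their direction and side of the threshold, 24 newly passed, 32 no longer passed and 13 turned sign. The turned values belong to 5 probe sets near 0. With a mouse left out Sema4d ran from -0.023 to 0.068, Nrp1 from -0.058 to 0.165, Nrp2 from -0.21 to 0.25 and Plxnc1 from -0.069 to 0.118. Sema4d was -0.0052 after renewed quantile normalization, Nrp2 0.082 with array weights, and the mean over probe sets was -0.069 for Plxnc1 and 0.13 for Efnb2. The cause of these shifts was not tested.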

Other observations

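The guidance families outside the rule, slits, netrins and their receptors, were read by 19 of 22 listed genes, a list written after the members' values were known, and none passed (limma; 2 higher and 3 lower at an unadjusted p under 0.05, or 26.3% against 18.8% of all genes read in the same way). Among the lower genes is Ntng2, which encodes netrin-G2, a lipid-anchored synaptic adhesion protein. It read 4.16, 5.02 and 4.97 in Ctl and 3.45, 3.74 and 3.58 in ZnR mice, so it passed the level filter through the Ctl mice alone and had to be lower in the others. The 26.3% counts it, so that share is partly set by the filter, and no conclusion is drawn from it. The ZnR values of Ntng2 lie where the scale is compressed, and no size is given for the difference. Slit2, a secreted repellent read by Robo receptors, measured 8.85, 9.03 and 9.09 in Ctl against 8.46, 8.59 and 8.52 in ZnR mice, or -0.47 ± 0.10 SE (adjusted p = 0.0627). The netrin receptor gene Unc5b measured 0.36 ± 0.12 (adjusted p = 0.17) and Dcc 0.24 ± 0.08 (adjusted p = 0.193), and the diets did not overlap in either.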
